A study of Mus musculus with 112 samples.

Results

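The enzymes of the tricarboxylic acid cycle described here are 9 genes: Cs, Idh3a, Idh3b, Ogdh, Dld, Sdha, Sdhb, Mdh1 and Mdh2. They were taken as a named list and not by a cut on measured values, though the list was chosen with earlier results of these data known. All 9 were present in both count tables, among 32544 gene symbols, and all 9 passed the filter on low counts that left 11886 genes for testing. Total RNA was sequenced from the gastrocnemius, the large calf muscle, of 56 Diversity Outbred mice, which are bred so that no 2 animals share a genome. The 28 females and 28 males were 16 weeks old. In each animal 1 limb had been immobilized in a cast for 3 weeks, and this was the right limb throughout, with the left limb as control. Side and immobilization can therefore not be told apart, and the control limb comes from an animal that also wore a cast on the other leg.

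The cycle runs in the mitochondrial matrix and oxidizes acetyl groups made from carbohydrate, fat and amino acids, passing electrons to the respiratory chain. In skeletal muscle its capacity is a classical measure of oxidative fitness: fibres that contract often have more mitochondria, and citrate synthase activity is widely used as an index of mitochondrial content. A cast reduces the contractile work that the cycle serves. The measurements here are of RNA and say nothing direct about enzyme activity.

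Citrate synthase (Cs) joins acetyl-CoA to oxaloacetate and opens the cycle. Idh3a and Idh3b encode the catalytic alpha and the beta subunit of the NAD-dependent isocitrate dehydrogenase. Ogdh is the first component of the 2-oxoglutarate dehydrogenase complex, and Dld is its dihydrolipoamide dehydrogenase, a component shared with the pyruvate dehydrogenase and branched-chain ketoacid dehydrogenase complexes. Sdha and Sdhb are the flavin and the iron-sulphur subunit of succinate dehydrogenase, which is also complex II of the respiratory chain. Mdh2 is the malate dehydrogenase of the matrix that closes the cycle, and Mdh1 is its cytosolic counterpart, which works in the malate-aspartate shuttle and is not itself a step of the cycle.

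RefSeq promoter windows (250 bases before to 50 after each start site, build GRCm38.p6) were in hand for 8 of the 9 genes, in 13 windows. They were searched on both strands for the NRF1 element CGCNTGCGC, the site of a factor that acts on many nuclear genes of mitochondria, and for the estrogen-related receptor element TCAAGGTCA. The NRF1 element was found for 3 of the 8 genes, Dld, Ogdh and Sdha, and in 7.03% of all genes with a window (6.25% of windows). The receptor element was found for 0 of the 8 and in 0.466% of all genes (0.423% of windows). Sdha held 3 matches, with first bases 98, 55 and 10 bases before the start site. The windows of Sdha and Dld are shown because the former held the most matches and the latter belongs to the gene with the smallest p in both sexes. The Ogdh match is shown because Ogdh and Dld are components of 1 complex whose transcripts changed unequally. Capitals mark the element, which reads on the strand opposite to each gene.
Sdha, 250 bases before the start site, chr13:74350241-74350490, minus strand: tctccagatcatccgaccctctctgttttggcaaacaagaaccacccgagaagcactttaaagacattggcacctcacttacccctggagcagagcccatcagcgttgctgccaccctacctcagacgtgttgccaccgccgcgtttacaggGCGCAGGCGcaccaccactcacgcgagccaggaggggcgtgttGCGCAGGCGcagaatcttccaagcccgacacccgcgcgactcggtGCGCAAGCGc
Dld, 250 bases before the start site, chr12:31351472-31351721, minus strand: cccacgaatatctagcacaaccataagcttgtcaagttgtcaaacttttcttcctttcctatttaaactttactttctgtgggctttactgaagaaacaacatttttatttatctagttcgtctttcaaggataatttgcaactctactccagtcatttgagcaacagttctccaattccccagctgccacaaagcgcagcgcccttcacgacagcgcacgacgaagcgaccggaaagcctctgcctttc
Dld, match after the start site, chr12:31351422-31351442, minus strand: cgtatatgttGCGCAGGCGca
Ogdh, match before a start site, chr11:6292533-6292561, plus strand: taggtgttgtGCGCATGCGtaactcaact
These matches describe letters in the reference. Binding was not measured in this study.

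Libraries held 1716485 to 9995936 counts (median 4395118), and the 9 genes had from 181 to 8188 counts in any 1 library, so counting error was small beside the differences between animals. Acta1, the actin of skeletal muscle fibres, was under 50% of its median of 31492 CPM (a TMM-scaled count that corrects for sequencing depth) in 10 libraries of 10 animals, at 3.45 to 13320 CPM, against 19988 to 50467 CPM in the other 102. The low limb was the immobilized limb in females 2, 22, 41 and 42 and male 35, and the control limb in females 26, 44 and 48 and males 52 and 55. In these libraries the 8 summed lymphocyte markers lay at 11.5 to 1403 CPM (0 to 149 in the others) and the 6 white adipocyte markers at 282 to 9089 CPM (1.45 to 3108). Pairing was checked on the 150 genes whose levels correlated best between the 2 limbs over the remaining animals. On these genes the control limb of 54 of 56 animals matched its own other limb best, and males 15 and 16 matched each other crosswise. The fold changes and the differences between pairs of genes were therefore computed with all animals and again without the 10 animals, which left 21 females and 25 males. Correlations of changes with each other, between limbs and with markers, and levels per length, are from these 46 animals alone. Leaving out males 15 and 16 changed no call among the 9 genes. Both males are among the 46 animals, and the correlations were not computed again without them.

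In females all 9 transcripts had negative fold changes in the immobilized limb, and 2 of them, Dld and Mdh1, fell past the threshold (edgeR adjusted p of at most 0.05). This threshold was passed by 4.57% of all genes tested in females, with 2.47% lower. Dld fell by 30.8% and Mdh1 by 33%, while the other 7 ranged from -0.44 (Idh3b) to -0.17 (Ogdh) on the log2 scale. In males all 9 were again negative, from -0.38 (Dld) to -0.17 (Sdha), and 0 passed. The share of all genes called in males was 2.21%, with 1.12% lower. With an unadjusted p up to 0.05 there were 7 of the 9 in females and 2, Dld and Mdh1, in males. Over all 11886 genes tested, 2899 in females and 2022 in males had such a p. DESeq2 called the same numbers of the 9 as edgeR, 2 in females and 0 in males, beside 1145 and 576 of all genes. The median fold change of the 9 genes was -0.37 in females and -0.24 in males on the log2 scale, beside medians close to no change over all genes tested (0.0059 and 0.0032). The female calls lay close to the threshold, while the fold changes moved little. With 1 animal left out at a time (limma on within-animal changes), Dld stayed between -0.63 and -0.44 and Mdh1 between -0.66 and -0.51. The number of the 9 called was 8 without female 26, 3 without female 48, 1 without female 4 or 46 and 0 without female 8, 22, 30, 41, 42 or 43, with limma adjusted p of 0.053 to 0.083 where Dld was lost and 0.05 to 0.078 where Mdh1 was lost. The number called among all 11886 genes moved as well. It was 2512 without female 26, 1084 without female 48, 332 without female 4 and 309 without female 46. Where 0 of the 9 were called in females, it was 150 to 225. In males 0 of the 9 were called whichever male was left out, beside 160 to 364 of all genes. In RNA of whole muscle, fewer cells of a type and less RNA per cell cannot be told apart.

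In the 21 females without a low Acta1 limb, 6 of the 9 fell: Dld, Mdh1, Idh3b, Idh3a, Sdhb and Mdh2. Cs, Sdha and Ogdh did not pass. Many more genes passed in this setting altogether, 17.2% of 11731 tested, with 9.1% lower. In males 1 of the 9, Dld, fell, where 9.13% of all genes passed and 4.9% were lower. The fold changes themselves moved little, from -0.55 to -0.12 in females and from -0.39 to -0.14 in males on the log2 scale. What differed was the spread: the SD of the within-animal changes was 0.74 to 1.14 over the 9 genes in all females and 0.33 to 0.77 in the 21, and 0.44 to 0.81 in all males and 0.27 to 0.60 in the 25.

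**Figure D1:**
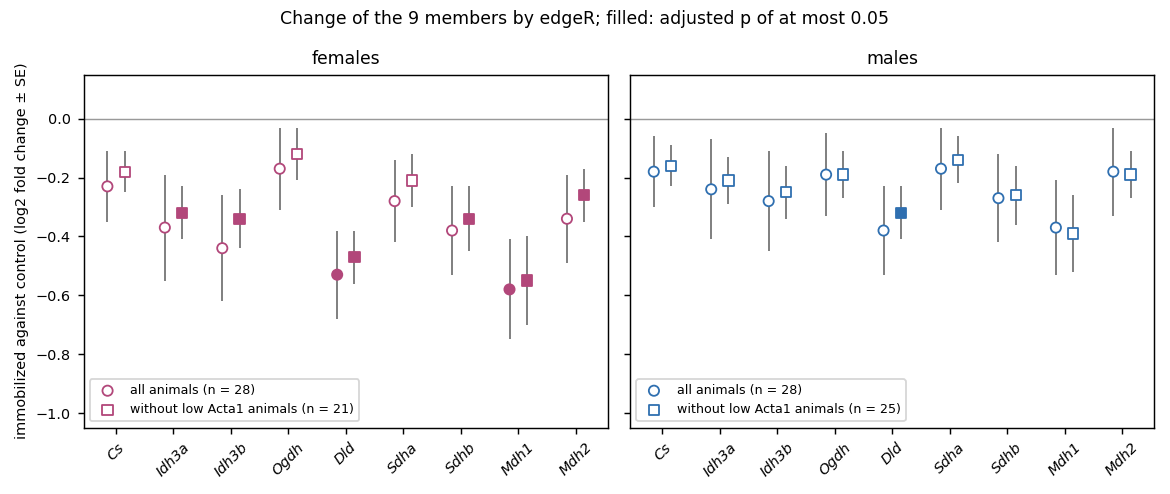
edgeR log2 fold change ± SE of each of the 9 genes, immobilized against control limb, in females (left) and males (right), with all animals (circles) and without animals that have a low Acta1 limb (squares); filled symbols have an adjusted p of at most 0.05. All 36 values are below 0, and the filled ones are Dld and Mdh1 in all females, 6 genes in the 21 females and Dld in the 25 males.

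At the entry of the cycle, Cs in females had a lowest, median and highest level of 221, 810 and 1135 CPM in control limbs and 251, 698 and 1086 CPM in immobilized limbs. The groups overlapped almost entirely, and the immobilized limb was the lower in 20 of 28 females. The log2 fold change was -0.23 ± 0.12 (SE, n = 28, edgeR adjusted p = 0.23), and -0.18 ± 0.07 in the 21 females (adjusted p = 0.076). In males Cs lay at 637, 886 and 1187 CPM in control limbs and 267, 814 and 1168 CPM in immobilized limbs, lower in 19 of 28. Its fold change was -0.18 ± 0.12 (n = 28, edgeR adjusted p = 0.43). Cs, the usual index gene of mitochondrial content, was thus among the less changed of the 9 in both sexes and did not pass in any of the 4 comparisons.

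Both subunits of isocitrate dehydrogenase passed in the females without a low Acta1 limb. Idh3a in these 21 females lay at 459, 589 and 757 CPM (lowest, median, highest) in control limbs and at 277, 489 and 750 CPM in immobilized limbs. The immobilized range reached far lower, and 16 of 21 animals were lower in that limb, and the log2 fold change was -0.32 ± 0.09 (edgeR adjusted p = 0.015). Idh3b in the same animals lay at 228, 449 and 680 CPM in control limbs and at 168, 384 and 618 CPM in immobilized limbs. It was lower in 17 of 21, at -0.34 ± 0.10 (edgeR adjusted p = 0.013). With all 28 females the values were -0.37 ± 0.18 and -0.44 ± 0.18 (edgeR adjusted p = 0.19 and 0.12). The widest single changes came from animals with a low limb: Idh3a differed by 2.96 in female 26, whose control limb was the low one, and by -3.56 in male 35, whose immobilized limb was. In males Idh3a and Idh3b were at -0.24 ± 0.17 and -0.28 ± 0.17 (n = 28, edgeR adjusted p = 0.51 and 0.42). In the 25 males they were at -0.21 ± 0.08 and -0.25 ± 0.09 (edgeR adjusted p = 0.11 and 0.064).

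The 2 genes of the 2-oxoglutarate dehydrogenase complex differed in how far they moved in females. Dld in females lay at 47.6, 246 and 360 CPM in control limbs and at 49.5, 176 and 300 CPM in immobilized limbs, lower in 23 of 28 animals. The median of the immobilized limbs was below that of the controls although the ranges overlapped, and the log2 fold change was -0.53 ± 0.15 (SE, n = 28, edgeR adjusted p = 0.033). In the 21 females Dld lay at 188, 248 and 360 CPM in control limbs and at 89.9, 193 and 300 CPM in immobilized limbs, lower in 18. There the fold change was -0.47 ± 0.09 (edgeR adjusted p = 0.00087), the smallest p of the 9. Dld in males lay at 154, 261 and 372 CPM in control limbs and at 35.4, 217 and 447 CPM in immobilized limbs, lower in 24 of 28. Its fold change was -0.38 ± 0.15 in all males (edgeR adjusted p = 0.14) and -0.32 ± 0.09 in the 25 (edgeR adjusted p = 0.014, lower in 22 of 25). The highest immobilized value, 447 CPM, belonged to male 51, whose Dld rose by 0.74.

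Ogdh, the first component of the same complex, was the least changed in females. It lay at 284, 946 and 1328 CPM in control limbs of females and at 256, 893 and 1178 CPM in immobilized limbs, lower in 17 of 28. The fold change was -0.17 ± 0.14 (SE, n = 28, edgeR adjusted p = 0.44), and -0.12 ± 0.09 in the 21 females (edgeR adjusted p = 0.36). In males Ogdh lay at 488, 980 and 1566 CPM in control limbs and at 200, 986 and 1325 CPM in immobilized limbs, so that the medians were nearly the same. It was lower in 16 of 28 males, at -0.19 ± 0.14 (edgeR adjusted p = 0.49), and at -0.19 ± 0.08 in the 25 (edgeR adjusted p = 0.13).

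Of the succinate dehydrogenase subunits, Sdhb passed in the 21 females and Sdha in no comparison. Sdhb in these females lay at 261, 455 and 701 CPM in control limbs and at 197, 358 and 572 CPM in immobilized limbs. It was lower in 16 of 21 animals, at -0.34 ± 0.11 on the log2 scale (edgeR adjusted p = 0.03). Sdha lay at 533, 752 and 980 CPM and at 330, 660 and 936 CPM, lower in 15 of 21, at -0.21 ± 0.09 (edgeR adjusted p = 0.089). For both genes the ranges of the 2 limbs overlapped over most of their length. With all females Sdha and Sdhb were at -0.28 ± 0.14 and -0.38 ± 0.15 (n = 28, edgeR adjusted p = 0.20 and 0.12). In males they were at -0.17 ± 0.14 and -0.27 ± 0.15 (n = 28, edgeR adjusted p = 0.54 and 0.36), and in the 25 at -0.14 ± 0.08 and -0.26 ± 0.10 (edgeR adjusted p = 0.28 and 0.089).

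Mdh1, the cytosolic malate dehydrogenase, had the lowest fold change of the 9 in females and, without the 10 animals, the widest spread of changes in both sexes. In females it lay at 158, 683 and 1153 CPM in control limbs and at 158, 407 and 751 CPM in immobilized limbs, lower in 21 of 28. The highest control limbs stood well above every immobilized limb, and the log2 fold change was -0.58 ± 0.17 (SE, n = 28, edgeR adjusted p = 0.037). In the 21 females it was -0.55 ± 0.15 (edgeR adjusted p = 0.0081), lower in 16, with single animals from -1.87 (female 43) to 0.92 (female 47). In males Mdh1 lay at 335, 590 and 1112 CPM in control limbs and at 130, 457 and 992 CPM in immobilized limbs, lower in 21 of 28. The fold change was -0.37 ± 0.16 (n = 28, edgeR adjusted p = 0.21), and -0.39 ± 0.13 in the 25, just above the threshold (edgeR adjusted p = 0.054, lower in 20).

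Mdh2, the mitochondrial form, lay at 641, 760 and 1134 CPM in control limbs of the 21 females and at 346, 686 and 1044 CPM in their immobilized limbs. It fell by 16.6%, at -0.26 ± 0.09 on the log2 scale (edgeR adjusted p = 0.031, lower in 17 of 21). With all 28 females the value was -0.34 ± 0.15 (edgeR adjusted p = 0.15). In males Mdh2 was at -0.18 ± 0.15 (n = 28, edgeR adjusted p = 0.55) and at -0.19 ± 0.08 in the 25 (edgeR adjusted p = 0.12). The shift in males was small beside the range of control levels, 344 to 1221 CPM.

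**Figure D2:**
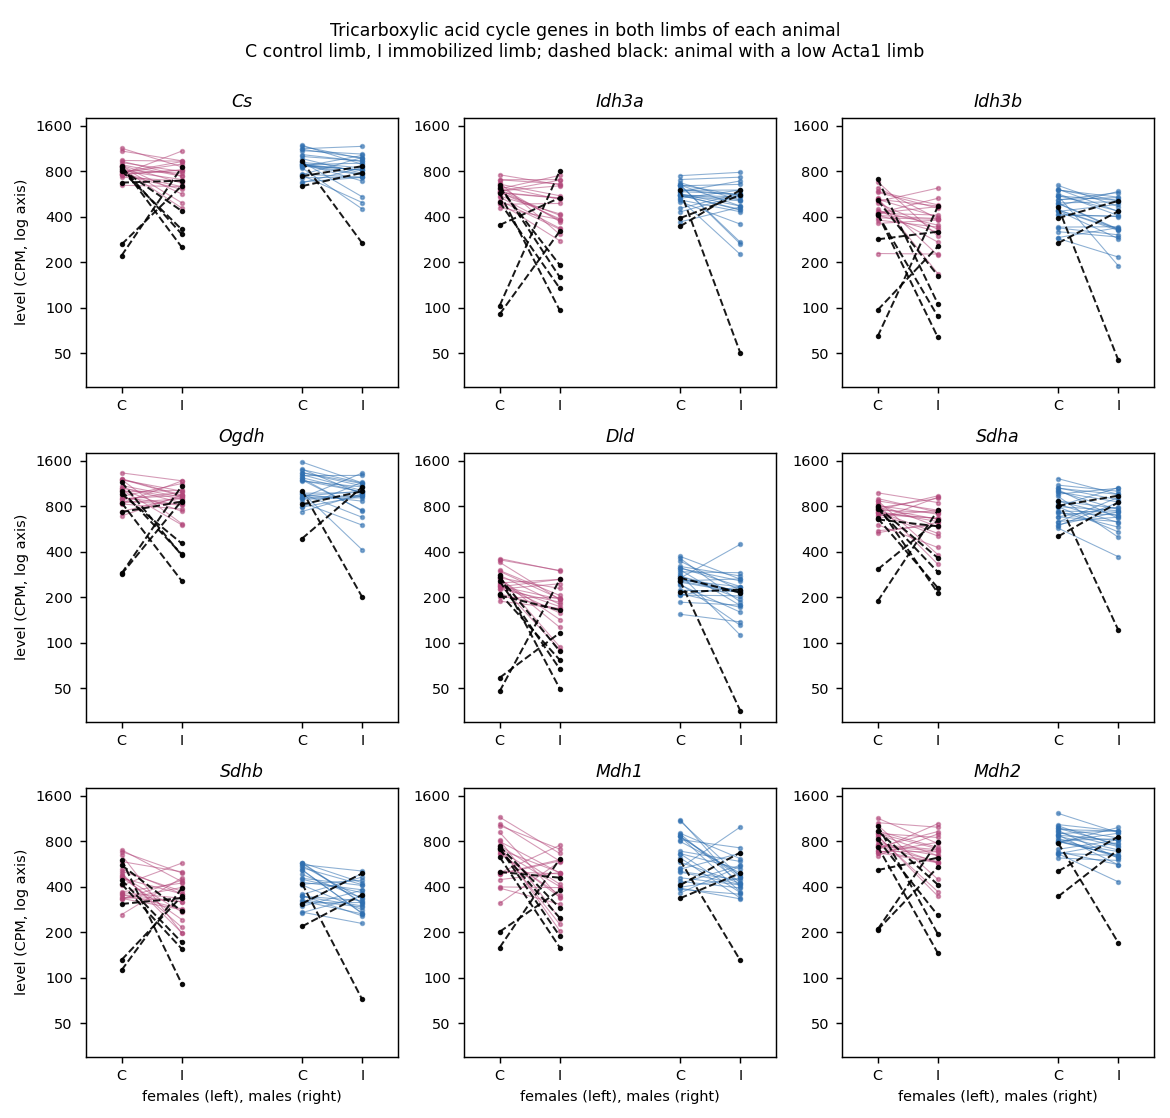
Level of each of the 9 genes in CPM (log axis) in the control (C) and immobilized (I) limb, with 1 line per animal, females at the left and males at the right of each panel; dashed black lines are the 10 animals with a low Acta1 limb. In every panel the widest swings, upward and downward, are dashed lines, and the coloured lines mostly slope down with overlapping ends.

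The immobilization effects of females and males were compared directly, since a call in 1 sex alone does not show a difference. The difference of effects, male minus female, ran from -0.02 (Ogdh) to 0.20 (Mdh1) over the 9 genes, and 0 of them passed (all adjusted p = 1, and 0 with an unadjusted p up to 0.05). For Dld it was 0.15 with a 95% interval of -0.26 to 0.56, and for Mdh1 0.20 with an interval of -0.25 to 0.66. Intervals this wide hold differences as large as the effects themselves. Without the 10 animals the values were 0.15 (-0.10 to 0.40) for Dld and 0.17 (-0.22 to 0.55) for Mdh1. Over all genes 0% passed in either setting by edgeR (194 and 352 genes had an unadjusted p of 0.05 or less), and DESeq2 also called 0 with all animals.

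Control limbs of males and females did not differ past the threshold in any of the 9 genes, where 1.73% of 10974 genes did. Sdha came nearest, 0.21 ± 0.10 higher in males on the log2 scale (28 males and 28 females, unadjusted p = 0.042, edgeR adjusted p = 0.32). It was the 1 gene of the 9 with an unadjusted p up to 0.05, beside 1594 of all 10974 genes. DESeq2 called 0 of the 9, beside 251 of all genes. For Cs the difference was 0.18 with a 95% interval of -0.01 to 0.36, and for Mdh1 it was -0.02 with an interval of -0.30 to 0.27.

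The animals differed in how far the 9 genes moved, and within an animal they mostly moved the same way. All 9 were lower in the immobilized limb in 14 of 28 females and 10 of 28 males, and all 9 were higher in 4 females and 2 males. Without the 10 animals the counts were 10 lower and 2 higher of 21 females, and 9 lower and 1 higher of 25 males. The median change of the 9 genes in an animal ran from -1.21 to 0.49 in those females and from -0.89 to 0.38 in those males. The highest of these male values belonged to male 16, whose limbs matched those of male 15 crosswise. Animals whose low Acta1 limb was the immobilized one had all 9 genes lower, with medians from -2.54 (male 35) to -1.18 (female 41). Where the control limb was the low one, the medians were positive: 1.95 in female 26, 1.38 in female 48, 0.70 in male 52, 0.38 in male 55 and 0.13 in female 44. In all 10 the 9 genes thus went the way of Acta1 by their median. The part of muscle content, lymphoid tissue or fat in these animals' values was not tested.

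**Figure D3:**
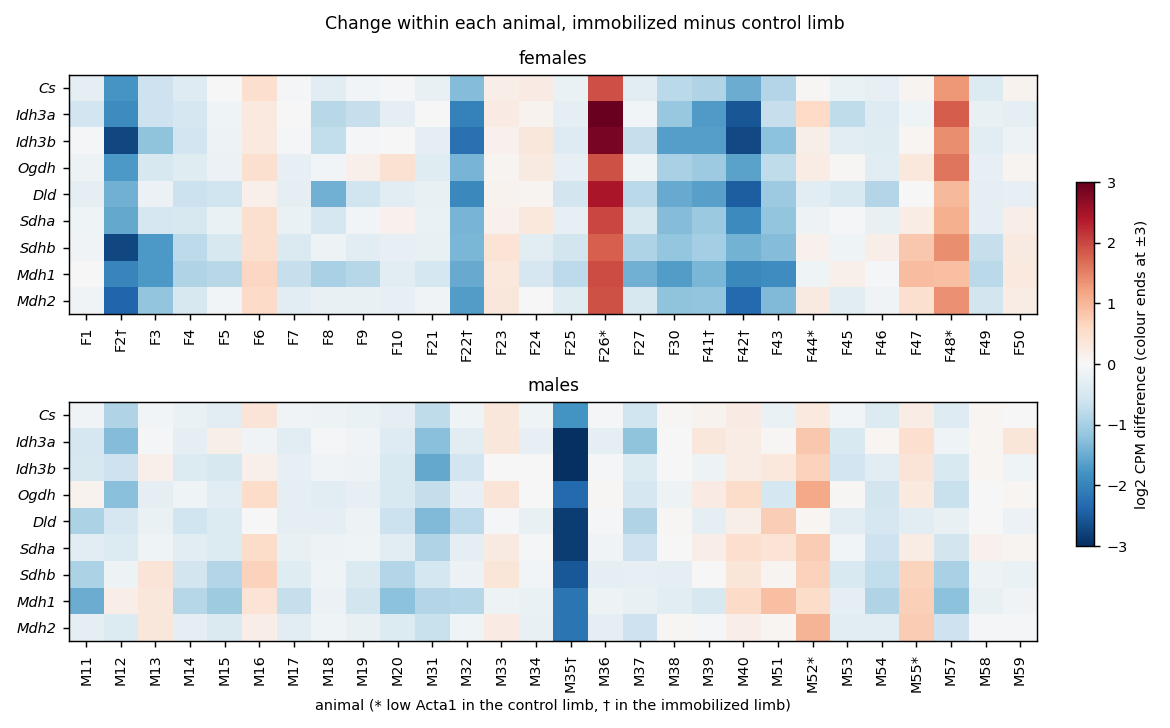
Change of each of the 9 genes (rows) in each animal (columns), as the log2 CPM of the immobilized minus the control limb, in females (top) and males (bottom), on a colour scale that ends at ±3; * marks a low Acta1 control limb and † a low Acta1 immobilized limb. Columns are mostly of 1 colour, the darkest blue columns carry † and the darkest red columns carry *.

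In the 46 animals without a low Acta1 limb, the changes of the 9 genes correlated with each other across animals, after centring within sex. Pearson's r over the 36 pairs of genes had a median of 0.69 and ran from 0.31 (Idh3a and Mdh1, rho 0.35) to 0.91 (Sdhb and Mdh1, rho 0.89). All 36 had a permutation p adjusted over the 36 relations of at most 0.039, and without the 2 animals farthest from the median r lay between 0.38 and 0.90. Each point shares its pair of libraries, and so its depth and scaling, between the genes compared. The highest values for Cs were with Ogdh (r = 0.90), Sdha (0.89) and Mdh2 (0.85), and those for Mdh1 were with Sdhb (0.91), Mdh2 (0.80) and Sdha (0.77), beside 0.57 with Cs and 0.46 with Ogdh. Mdh2 and Sdha were thus high with both, and differences between these correlations were not tested. Levels in the 2 limbs of an animal, paired as labelled, were weakly related. The r between limbs ran from 0.00 (Mdh1, rho 0.07) to 0.36 (Cs, rho 0.37), and from 0.07 to 0.34 without the 2 farthest animals. Of these 9 relations 0 passed at a permutation p adjusted over the 9, with a lowest value of 0.068, and 4 had an unadjusted p up to 0.05. The 46 animals include the males whose limbs matched each other crosswise, so some pairs may join limbs of different animals. How far this lowers r between limbs was not tested.

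Transcripts of the mitochondrial genome moved with all 9 genes in these 46 animals, and those of slow fibres passed with 5 of them by Pearson's r. The change of the 13 summed mitochondrial protein transcripts correlated with each of the 9, from r = 0.34 for Ogdh (rho 0.34) to 0.77 for Dld (rho 0.72), over 46 animals (permutation p adjusted over 27 relations at most 0.033). Without the 2 farthest animals r was 0.38 to 0.83. The sum of 8 slow-fibre markers correlated most with Mdh1 (r = 0.62, rho 0.70, permutation adjusted p = 5.4e-05, 0.62 without the 2 farthest animals) and Sdhb (r = 0.50, rho 0.57). Idh3b, Sdha and Mdh2 also passed (r = 0.35 to 0.36, permutation adjusted p = 0.032). The other 4 did not: Cs (r = 0.14, rho 0.30), Ogdh (0.15, rho 0.31), Dld (0.24, rho 0.34) and Idh3a (-0.23, rho -0.07), of which Dld passed by rho (permutation adjusted p = 0.038). Without the 2 farthest animals r rose to 0.35 for Cs, 0.36 for Ogdh, 0.31 for Dld and -0.03 for Idh3a. For the 5 that passed it was then 0.43 to 0.62. With Acta1 r lay between -0.01 (Mdh1) and 0.41 (Mdh2), and 4 of 9 passed, though 0 of 9 by Spearman's rho. The slow-fibre sum itself had a median of 5689 CPM in control and 3394 CPM in immobilized limbs of females without low Acta1, and 3806 and 2239 CPM in males, with overlapping ranges from 137 to 15000 CPM. All 8 markers had negative fold changes in both sexes, and Atp2a2, the slow calcium pump, fell in the 21 females (-0.97 ± 0.33, edgeR adjusted p = 0.038). With all animals 0 of the 8 passed by edgeR in either sex, 1 in females and 0 in males with an unadjusted p up to 0.05, and DESeq2 called Atp2a2 in females. How far the fall of Mdh1 or the others follows the amount of slow muscle in each sample was not tested.

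Pairs of genes whose products work together were compared within each animal. Ogdh minus Dld, the difference of their log2 changes, ran from -0.53 to 1.34 in females with a median of 0.33 and was positive in 23 of 28. Its mean was 0.35 ± 0.08 (SE, 2-sided sign-flip permutation p adjusted over 8 comparisons = 0.00088), so Dld fell more than Ogdh. In males it ran from -1.26 to 1.08 with a mean of 0.19 ± 0.09, positive in 19 of 28 (permutation adjusted p = 0.093). Mdh1 minus Mdh2 was -0.21 ± 0.07 in females, negative in 18 of 28 (permutation adjusted p = 0.036), and -0.19 ± 0.08 in males, negative in 19 of 28 (adjusted p = 0.086). The cytosolic form thus fell more than the mitochondrial form in females, while the same direction in males did not pass, and with the median in place of the mean the female adjusted p was 0.051. Whether either pair differs between the sexes was not tested.

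For subunits of 1 enzyme no inequality passed. Idh3a minus Idh3b was 0.09 in females with a 95% interval of -0.04 to 0.23, and 0.03 in males with an interval of -0.09 to 0.16 (permutation adjusted p = 0.22 and 0.61). Sdha minus Sdhb was 0.11 in females (-0.06 to 0.27) and 0.09 in males (-0.03 to 0.21), with permutation adjusted p of 0.25 and 0.22. Differences up to the ends of these intervals remain possible. When the 10 animals were left out, Ogdh minus Dld was 0.35 in females (adjusted p = 0.0014) and 0.13 in males (adjusted p = 0.25), and Mdh1 minus Mdh2 was -0.28 (permutation adjusted p = 0.016) and -0.19 (adjusted p = 0.10). Sdha minus Sdhb was then 0.13 in females and 0.12 in males (permutation adjusted p = 0.22 and 0.10, unadjusted p = 0.046 in males). Idh3a minus Idh3b was 0.03 and 0.04 (permutation adjusted p = 0.74 and 0.69).

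**Figure D4:**
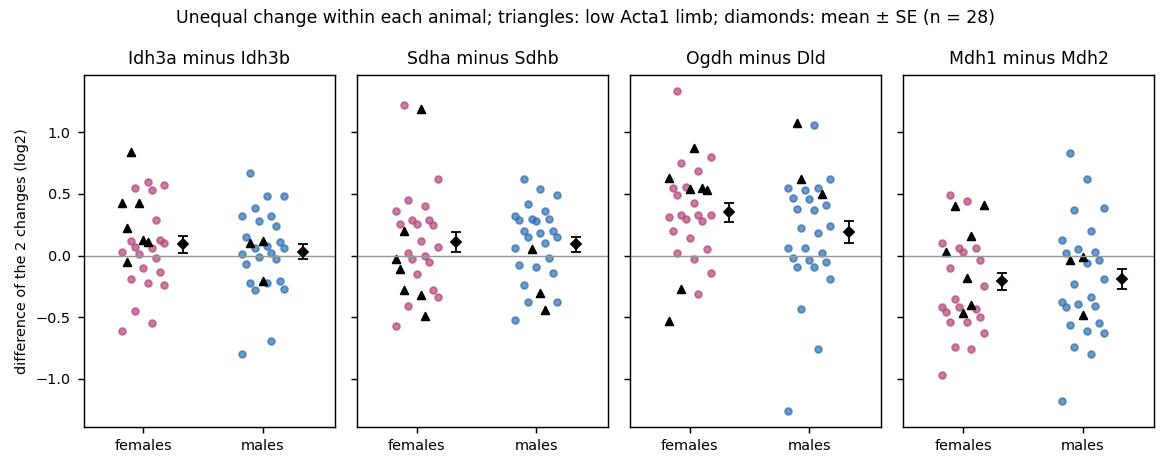
Difference of the log2 changes of 2 genes within each animal for 4 pairs, with 1 point per animal, triangles for animals with a low Acta1 limb, and the mean ± SE (n = 28) as a diamond. The points of Ogdh minus Dld lie mostly above 0 (23 of 28 females, 19 of 28 males) and those of Mdh1 minus Mdh2 mostly below it (18 of 28 females, 19 of 28 males). Idh3a minus Idh3b is above 0 in 18 of 28 females and 17 of 28 males, and Sdha minus Sdhb in 16 and 18, with means nearer to 0.

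Per length of transcript, Mdh1 and Mdh2 were the most abundant of the 9 and Dld the least. In control limbs of the 21 females the levels in CPM per kilobase of GENCODE M21 exons were 263 ± 89.8 for Mdh1 (SD), 229 ± 39 for Mdh2, 201 ± 55.6 for Sdhb, 182 ± 26.8 for Sdha, 182 ± 31.5 for Ogdh, 146 ± 19.9 for Cs, 138 ± 29.7 for Idh3b, 117 ± 15.1 for Idh3a and 70.9 ± 12.8 for Dld. Some neighbours lay within their spread: Mdh1 exceeded Mdh2 in 13 of 21 animals and Sdha exceeded Ogdh in 12 of 21. Other steps were more regular: Mdh2 exceeded Sdhb in 19 of 21, Ogdh exceeded Cs in 20, Idh3b exceeded Idh3a in 18 and Idh3a exceeded Dld in 21 of 21. Sdhb above Sdha (14 of 21) and Cs above Idh3b (15) lay between. Males had the same ends of the order by their means, Mdh1 at 254 ± 87.5 and Dld at 72.5 ± 14.5 CPM per kilobase (SD, n = 25). Mdh1 exceeded Mdh2 in only 12 of the 25 male control limbs. In immobilized limbs Mdh2 stood above Mdh1, at 194 ± 52.1 against 180 ± 61.8 CPM per kilobase in females (above in 17 of 21) and 209 ± 40.7 against 190 ± 56.9 in males (above in 20 of 25). The reading assumes that all exons of the annotation are used.

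Other genes in or near the cycle fell in part. Of 16 further genes, among them the assembly factors of succinate dehydrogenase, 1 fell in females, Sdhaf3, a factor that helps to assemble the iron-sulphur subunit (-0.50 ± 0.15, edgeR adjusted p = 0.041), and 0 in males. With an unadjusted p up to 0.05 there were 7 in females and 3 in males, and DESeq2 called 3 and 1. Without the 10 animals 8 fell in females and 3 in males. Idh2, the mitochondrial NADP-dependent isocitrate dehydrogenase, had the lowest value among them, -0.87 ± 0.23 in females and -0.86 ± 0.21 in males (edgeR adjusted p = 0.0084 and 0.0071). Dlst, the middle component of the 2-oxoglutarate dehydrogenase complex, fell to a similar degree as most members, by 0.26 in females and 0.23 in males on the log2 scale (edgeR adjusted p = 0.012 and 0.025). The assembly factor Sdhaf2 fell by 0.27 and 0.24 (edgeR adjusted p = 0.019 and 0.037), and in females Suclg2, Fh1 and Sdhd were among those that also passed, from -0.29 to -0.24. The median of the 16 was -0.26 in females and -0.16 in males with all animals. Values were negative for 13 of the 16 in females and for 16 in males. The positive ones in females were Idh1 (0.27 ± 0.19), Aco1 (0.10 ± 0.15) and Sdhaf1 (0.02 ± 0.11), and none of them passed.

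Several genes of pyruvate entry fell as well. Of 13 genes 2 fell in females with all animals: Mpc1, a subunit of the mitochondrial pyruvate carrier, at -0.57 ± 0.15, and Dlat, the acetyl transferase of the pyruvate dehydrogenase complex, at -0.43 ± 0.12 (edgeR adjusted p = 0.027 and 0.036). In males Pdp2, a phosphatase that activates the complex, fell by 0.90 (edgeR adjusted p = 0.039). With an unadjusted p up to 0.05 there were 8 in females and 9 in males, and DESeq2 called 7 and 4. Among the 9 in males, Pdk3 was higher (0.83 ± 0.34, edgeR unadjusted p = 0.016) and the others were lower. With the 10 animals left out 12 genes were tested, and 7 fell in females and 8 in males. Mpc1, Mpc2, Pdha1, Dlat, Pdhx, Pdpr and Pdk1 fell in both. Mpc1 was at -0.53 ± 0.09 in females and -0.32 ± 0.08 in males (edgeR adjusted p = 0.00019 and 0.0095), and Pdha1, the catalytic subunit, at -0.42 ± 0.09 and -0.34 ± 0.08 (edgeR adjusted p = 0.0018 and 0.0073). Pdk1, a kinase that inactivates the complex, was among those that fell, at -0.41 in females and -0.38 in males. Pdpr, which regulates the phosphatase of the complex, had the lowest value in the list, -1.18 in females (edgeR adjusted p = 0.0074).

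Among the genes of the other complexes that use Dld, the smallest p belonged to Dbt, the acyl transferase of branched-chain ketoacid dehydrogenase. Dbt fell by 0.47 in females (23 of 28 lower) and by 0.61 in males (25 of 28 lower) with all animals (edgeR adjusted p = 0.013 and 0.00075), and by 0.46 and 0.47 without the 10 (edgeR adjusted p = 0.0015 and 0.00072). Ppm1k, the phosphatase that activates the same complex, fell in both sexes and both settings, from -0.51 to -0.45. These were the 2 of 8 tested genes that passed with all animals, and Gcsh of the glycine cleavage system joined them in the 21 females at -0.18. The remaining genes of the list, such as Bckdha at -0.18 ± 0.12 in females (edgeR adjusted p = 0.36), did not pass.

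Around Mdh1, 0 of 9 tested genes of the malate-aspartate shuttle and the malic enzymes passed with all animals in either sex by edgeR or DESeq2, with 1 (Slc25a11) in females and 0 in males with an unadjusted p up to 0.05. In the 21 females the oxoglutarate carrier Slc25a11 and the mitochondrial aspartate aminotransferase Got2 fell, at -0.32 ± 0.09 and -0.37 ± 0.11 (edgeR adjusted p = 0.016 and 0.018). Me2, the mitochondrial malic enzyme, had a positive value of 0.35 in both sexes with all animals (edgeR adjusted p = 0.33 in females and 0.41 in males). Of 10 tested genes that fill or drain the cycle, 0 passed in females with all animals, 4 with an unadjusted p up to 0.05, and DESeq2 called 2, Glud1 among them. In males Pcca, a subunit of propionyl-CoA carboxylase, fell by 0.42 (edgeR adjusted p = 0.041). In the 21 females Glud1, which feeds glutamate into the cycle, fell at -0.18 (edgeR adjusted p = 0.028), and Pcca fell in the 25 males at -0.28 (edgeR adjusted p = 0.03).

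Some regulators of mitochondrial genes also fell. Of 11 genes, Gabpa (-0.37), the estrogen-related receptor Esrrg (-1.04) and the coactivator Ppargc1a (-0.80) fell in females with all animals (edgeR adjusted p = 0.026, 0.037 and 0.037), and Ppara (-1.42) and Ppargc1b (-0.57) fell in males (edgeR adjusted p = 0.027 and 0.049). With an unadjusted p up to 0.05 there were 8 in females and 6 in males, and DESeq2 called 6 and 3. Without the 10 animals 8 fell in females and 5 in males, with Esrra, Esrrg, Perm1, Ppara and Sirt3 in both. Ppargc1b in males no longer passed there (-0.47, edgeR adjusted p = 0.059). Ppargc1a in the 21 females was at -0.90 ± 0.17 (edgeR adjusted p = 0.0005), lower in 19 of 21. Of the 13 protein genes of the mitochondrial genome, 7 fell in females with all animals, mt-Atp8 at -1.17, mt-Nd5 at -0.93 and mt-Co1 at -0.87 among them, and DESeq2 called 10. In males 0 of the 13 passed by edgeR, 3 with an unadjusted p up to 0.05, and DESeq2 called these 3, mt-Nd5, mt-Atp8 and mt-Co1. In the remaining animals 11 fell in females and 3 in males. With all animals, the median log2 fold changes in females and males were -0.40 and -0.37 for pyruvate entry, -0.15 and -0.27 for the other complexes that use Dld, -0.09 and -0.09 for the shuttle list and -0.17 and -0.21 for the filling and draining list. They were -0.37 and -0.42 for the regulators and -0.66 and -0.38 for the mitochondrial genome, against 0.0059 and 0.0032 over all genes tested. In none of these 7 lists did a gene rise past the threshold in either sex or setting.

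**Figure D5:**
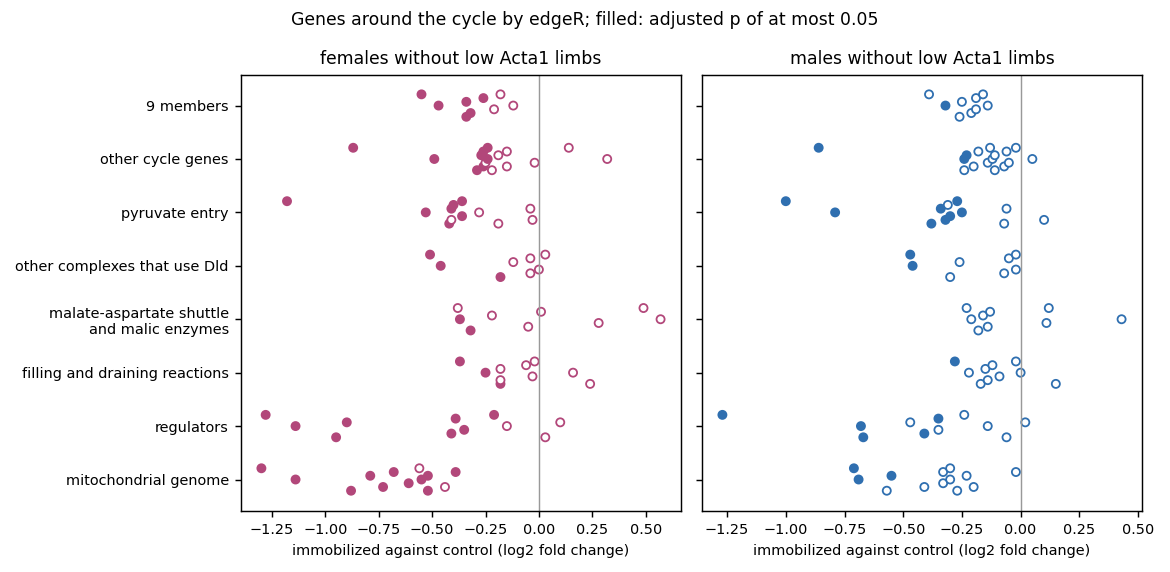
edgeR log2 fold changes, immobilized against control, of the 9 genes and of 7 lists of genes around the cycle, in the 21 females (left) and 25 males (right) without a low Acta1 limb, with 1 point per gene; filled points have an adjusted p of at most 0.05. Every filled point lies below 0, and the lowest are regulators, transcripts of the mitochondrial genome, Pdpr and Idh2.

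Markers of cells other than muscle fibres moved in the immobilized limb too. Of 7 macrophage markers, 4 rose in females and 0 in males with all animals (7 and 6 with an unadjusted p up to 0.05, and 6 and 2 by DESeq2), and 6 rose in each sex without the 10. Their summed level in libraries without low Acta1 had medians of 70.4 CPM in control and 113 CPM in immobilized limbs of females and 59.3 and 81.4 CPM in males. Fibroblast markers rose in part: 1 of 5 in each sex with all animals (3 and 4 with an unadjusted p up to 0.05, 1 and 2 by DESeq2). Without the 10, Col3a1 rose by 0.94 in females and 0.98 in males (edgeR adjusted p = 0.035 and 0.029), and Lum by 0.63 in males (edgeR adjusted p = 0.016). Dcn was at -0.03 in those females and Col1a1 at 0.13 in those males. Summed fibroblast medians without low Acta1 were 1207 CPM in control and 1404 CPM in immobilized limbs of females, and 1073 and 1024 CPM in males. Of 5 endothelial markers, Kdr, a receptor for vascular endothelial growth factor, fell in males with all animals (-0.54, edgeR adjusted p = 0.031, lower in 23 of 28). Without the 10 animals Kdr fell in both sexes, at -0.43 in females and -0.44 in males (edgeR adjusted p = 0.05 and 0.033), while Egfl7 rose in females (0.34, edgeR adjusted p = 0.037). The other 3, Cdh5, Pecam1 and Tie1, passed in none of the 4 comparisons by edgeR. The summed endothelial level in libraries without low Acta1 had medians of 215 CPM in control and 214 CPM in immobilized limbs of females and 259 and 256 CPM in males. Of 11 muscle fibre markers 0 passed by edgeR in any of the 4 comparisons, nor by DESeq2 with all animals, and with an unadjusted p up to 0.05 there were 0 with all animals and 3 in each sex without the 10. Those 3 were Pvalb (0.33), Mb (-0.62) and Myh2 (-0.62) in females, and Myh2 (-0.80), Pvalb (0.32) and Acta1 (-0.21) in males. Of 6 white adipocyte markers 0 passed in any comparison by edgeR, or by DESeq2 with all animals, and 0 had an unadjusted p up to 0.05 with all animals. Their median fold change was 0.77 in females and -0.93 in males on the log2 scale. Of 5 Schwann cell markers 0 passed with all animals (3 and 4 with an unadjusted p up to 0.05, 1 and 3 by DESeq2), and without the 10 animals Mbp was among those that rose in females and Pmp22 rose in males. The share of these cells in the fall of the 9 genes was not tested.

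The genes whose within-animal changes were most like those of the 9, by mean Spearman's rho over 56 animals centred within sex, were Atp5a1 (0.88), Uqcrc2 (0.88), Coq9 (0.87), Cyc1 (0.87), Ndufs1 (0.87) and Coq5 (0.86). The median over 8540 genes was 0.08. Over the 46 animals the first 4 were the same and in the same order, at 0.81 to 0.78, with a median of 0.02 over all genes. They encode subunits of ATP synthase and of respiratory complexes III and I, and enzymes of coenzyme Q synthesis. None of the 6 passed on its own with all animals: Uqcrc2 came nearest, at -0.49 in females (edgeR adjusted p = 0.053).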

How the data were processed

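The deposited tables, 1 per sex, give whole-number raw counts of reads for each gene symbol. Per the labels' protocols, stranded total RNA libraries were made after depletion of ribosomal RNA. Aligner, counter, genome build and strand setting: not given in the sources used here. All 112 libraries were mapped to groups by their labels, and limbs were paired by the animal number in the titles. A check of this pairing used 150 genes, each time those with the highest correlation between limbs over the remaining animals. The best match of a control limb was the other limb of its own animal in 54 of 56 cases.

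The main test was edgeR 4.0.16 (R 4.3.3): filterByExpr by the 4 groups, TMM, and a quasi-likelihood fit of all libraries with the animal as block and 1 immobilization effect per sex. P-values were adjusted by Benjamini-Hochberg over all genes tested, with a threshold of 0.05. Control limbs were compared between the sexes in a fit of those 56 libraries. CPM were TMM-scaled, and log2 changes within an animal used a prior count of 2. Pairs of genes were tested by 2-sided sign-flip permutation (100000 resamples). Intervals are at 95%. A low Acta1 limb has under 50% of the median Acta1 CPM. DESeq2 1.42.0 and limma 3.58.1 gave alternatives. The edgeR script was tested on simulated data. The members, lists and alternatives were chosen with earlier results of these data known. All members are named, and each list is represented by at most 4 genes per sex, those of smallest p, with others where a result turns on them. The most similar genes are the 6 with the highest mean rho among genes with an average log2 CPM of at least 3. Nothing in the labels says that limbs were sampled more than once, so the animal is the unit of replication. In GENCODE M21, exons of Mdh1 overlap Wdpcp by 52 bases and exons of Idh3b overlap Nop56 by 5 bases, on opposite strands. A few genes of the lists are counted but not reported here by name.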

Additional observations from a re-analysis of the deposited data

How the results depend on the processing

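The direction of all 9 genes in females held under every alternative tried, and in males under all but 1: in males numbered 41 to 59 (8 animals, 2 with a low Acta1 control limb) Idh3a was at 0.15, Sdha at 0.04 and Mdh2 at 0.06, and without those 2 animals the means of all 9 were negative. The number of the 9 lower in females, 2 in the main fit, was 6 without the low Acta1 animals, 0 with no low-count filter, 0 with females fitted alone, and 0 in females numbered 21 to 40 and 41 to 59. Dld and Mdh1 then kept values of -0.62 to -0.35 and -0.58 to -0.37. In males the number, 0 in the main fit, was 1 (Dld) without the low Acta1 animals and 1 (Dld) with males fitted alone. Genes called in females, 543 in the main fit, were 145 with no filter, 1145 by DESeq2, 2017 without the low Acta1 animals, 84 with females alone, and 0 in each of the 2 later number ranges. In males they were 109, 576, 1071 and 582 under the same 4 changes, against 263, and 6, 0 and 1 in animals 1 to 20, 21 to 40 and 41 to 59. The number ranges hold fewer animals, and for the other changes the cause was not tested.

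The replicate block is the animal. With no replicate block, 521 genes were called in females and 589 in males, 2 and 0 of the 9 genes among them, and 1 gene in the difference between the sexes. Leaving out 1 animal at a time (limma), 0 to 8 of the 9 genes were called in females and 150 to 2512 genes in all. It was 8 without female 26 and 3 without female 48, whose control limbs were low in Acta1, 1 without female 4 or 46, and 0 without female 8, 22, 30, 41, 42 or 43, while Dld stayed at -0.63 to -0.44 and Mdh1 at -0.66 to -0.51. In males 0 of the 9 were called throughout, and 160 to 364 genes in all, the lowest without male 32. Between the sexes in control limbs, 372 genes were called without low Acta1 limbs and 346 with a mean of at least 1 CPM, against 190, and Idh3a and Idh3b changed sign to -0.04 and -0.02. With the median in place of the mean, Ogdh minus Dld in males was 0.23 and passed (permutation adjusted p = 0.036), and Mdh1 minus Mdh2 in females was -0.30 and did not (permutation adjusted p = 0.051). The shallowest library had 1716485 counts, and lymphocyte markers were too low to be tested.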
